A study of Mus musculus with 2 samples.

Results

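Trp53, the gene of the transcription factor p53, and 8 genes that p53 is known to switch on were followed through the immune cells of mouse tumours that are p53-deficient by the title of the study. The set comprised Trp53, Mdm2, Cdkn1a, Ccng1, Bax, Bbc3, Phlda3, Trp53inp1 and Sesn1, was chosen by name as p53 and common targets, and makes up 9 of the 32245 gene symbols in the count matrices. All 9 were found. Single-cell 3′ RNA libraries had been made from subcutaneous KP allograft tumours 14 days after inoculation. The tumours were dissociated, enriched for immune cells over Percoll and sorted for live cells that carry CD45, which marks leukocytes. The KPT library carries the genotype label Tdg KO and is called Tdg_KO, and the KP library carries the genotype label WT and is called Tdg_WT. Both share the KP background. Which cells carry either genotype, how many mice gave each library and which deletion was made are not in the labels. There was 1 library per group, so no difference between the groups could be tested. Every interval below is a 95% interval that covers counting error only.

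p53 is a tetrameric transcription factor that is held at a low protein level by the ubiquitin ligase MDM2 and is stabilised after DNA damage and other stress. It binds paired half-sites in DNA and raises the transcription of genes that arrest the cell cycle, start apoptosis or limit growth, and it also raises Mdm2, which closes a feedback loop. Most of this control acts on the p53 protein, so the Trp53 transcript is not a measure of p53 activity. Several of the targets, Cdkn1a above all, are also induced without p53.

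The Tdg_KO library held 52586319 UMIs (molecular tags, 1 for each RNA molecule captured) in 5896 barcodes, of which 5693 were kept with a median of 6419 UMIs. The Tdg_WT library held 39819010 UMIs in 5604 barcodes, of which 5504 were kept with a median of 5378 UMIs. The 2 libraries shared 8 barcode sequences. Tdg, which encodes thymine DNA glycosylase, was at 26.5 CPM (UMIs of a gene per 1000000 UMIs of the cells summed) in the Tdg_KO library and 25.1 CPM in the Tdg_WT library, a ratio of 1.06 (0.974 to 1.15). UMIs at RNA 3′ ends do not check a deletion elsewhere in the gene. Ptprc, which encodes CD45, had a UMI in 90.3% of kept Tdg_KO barcodes and 83.6% of kept Tdg_WT barcodes. Marker genes placed the cells in classes, of which 16 had at least 50 cells in each library. Clusters that could not be named or held mostly barcodes with genes of mixed lineages took 11.5% of the kept Tdg_KO cells and 6.72% of the kept Tdg_WT cells, and stayed in no class. Mixed barcodes, some of them inside classes, made up 12.2% of all kept Tdg_KO cells and 7.92% of all kept Tdg_WT cells. In summed cells, fewer cells that express a gene and less RNA per cell cannot be told apart.

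Promoter sequence is shown for the members whose window holds a near match to the p53 response element. RefSeq windows on GRCm38.p6, 250 bases before to 50 bases after a transcription start, were available for 8 of the 9 genes, in 12 windows. The p53 consensus half-site (10 bases, its own reverse complement, so that 1 search covers both strands) occurred without a mismatch in 6 of the 12 windows, 1 window each for Trp53, Mdm2, Cdkn1a, Ccng1, Bax and Sesn1, against 8.36% of all 32851 windows. A full site of 2 half-sites with a spacer of 0 to 13 bases and no mismatch occurred in 0.0731% of all windows, and Cdkn1a was 1 of those 24. With at most 2 mismatches, and the C and G of both cores kept, full sites occurred in 4 of the 12 windows, against 4.09% of all windows. These 4 windows belong to 4 of the 8 genes. The genes were chosen as p53 and common targets, so a share above that of all windows is favoured by the choice. The Cdkn1a window is chr17:29090729-29091028 on the plus strand, 5′ to 3′. Its 2 half-sites without a mismatch are in capitals, with a spacer of 12 bases between them. The 10 bases directly after the second half-site, left in lower case, match the consensus with 1 mismatch. With that half-site they form a full site without a spacer.
Cdkn1a: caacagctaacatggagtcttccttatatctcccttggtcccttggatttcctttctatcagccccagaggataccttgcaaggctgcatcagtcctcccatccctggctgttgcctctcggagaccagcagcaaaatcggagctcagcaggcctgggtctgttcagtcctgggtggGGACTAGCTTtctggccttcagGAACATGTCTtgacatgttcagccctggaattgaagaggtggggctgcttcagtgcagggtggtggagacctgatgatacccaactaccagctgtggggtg
The sites of the other 3 genes are given alone, half-sites in capitals and spacer in lower case. Ccng1 had 1 mismatch and no spacer, in the window chr11:40755237-40755536 on the minus strand. Bax had 2 mismatches, in chr7:45466849-45467148 on the minus strand, and Sesn1 had 2 mismatches, in chr10:41887189-41887488 on the plus strand.
Ccng1: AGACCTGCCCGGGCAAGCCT
Bax: TGACAAGCATatcccAGGCAAGCTT
Sesn1: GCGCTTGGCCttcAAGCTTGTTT
These are matches of letters in a short window. No binding was measured, and response elements farther from a start or in introns were not searched.

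Trp53 itself (ENSMUSG00000059552, mm10 chr11:69580359-69591873, plus strand, protein-coding) was detected in every class and varied little between them. Its mean level over the 2 libraries differed by 2.72-fold between the highest and the lowest of the 16 classes. By that mean gamma-delta T cells were at the top, with 95.9 CPM in the Tdg_KO library and 78.7 CPM in the Tdg_WT library. The cluster led by Klra1, Tcrg-C2 and Klra6, left unnamed because no marker set reached its limit, had 85.0 CPM in Tdg_KO and 81.8 CPM in Tdg_WT, and NK cells had 84.8 CPM in Tdg_KO and 77.4 CPM in Tdg_WT. Macrophages were lowest, with 39.1 CPM in Tdg_KO and 25.0 CPM in Tdg_WT, and monocytes next, with 40.1 CPM in Tdg_KO and 34.7 CPM in Tdg_WT. Monocytes and macrophages therefore lay below every lymphoid class. Type 1 conventional dendritic cells, with 64.3 CPM in Tdg_KO and 67.7 CPM in Tdg_WT, lay among the lymphoid classes. Most neighbours in this order overlapped in their counting intervals. Transcripts of Trp53 were present in the immune cells of both libraries. Whether a cell came from the host or the graft was not measured.

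Mdm2 (chr10:117688875-117710758, minus strand), the ubiquitin ligase that marks p53 for degradation, was highest in 2 myeloid classes. Monocytes had 184 CPM in Tdg_KO and 127 CPM in Tdg_WT, and neutrophils had 118 CPM in Tdg_KO and 140 CPM in Tdg_WT. The intervals of both lay above those of regulatory T cells, the class that followed with 64.4 CPM in Tdg_KO and 66.5 CPM in Tdg_WT. Mixed barcodes made up 31.2% of Tdg_KO and 19.7% of Tdg_WT monocytes, and their part in these levels was not tested. At the low end, a small cluster led by Pclaf, Birc5 and Mgl2 had 6.98 CPM in Tdg_KO and 7.70 CPM in Tdg_WT, which made the range 21.2-fold. That range rests on very few Mdm2 UMIs, since the cluster held 429805 UMIs of all genes in Tdg_KO and 389471 in Tdg_WT. The next lowest class, type 1 conventional dendritic cells, had 19.9 CPM in Tdg_KO and 24.2 CPM in Tdg_WT.

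Cdkn1a (chr17:29090976-29100727, plus strand), which encodes the cyclin-dependent kinase inhibitor p21, ranged 23.1-fold between classes and was also highest in monocytes and neutrophils. Monocytes had 918 CPM in Tdg_KO and 1229 CPM in Tdg_WT, and neutrophils 788 CPM in Tdg_KO and 912 CPM in Tdg_WT. Type 2 innate lymphoid cells (ILC2), with 599 CPM in Tdg_KO and 895 CPM in Tdg_WT, were the highest lymphoid class. Gamma-delta T cells followed among the lymphoid classes, with 477 CPM in Tdg_KO and 375 CPM in Tdg_WT, above CD4 T cells with 206 CPM in Tdg_KO and 199 CPM in Tdg_WT without overlap of the intervals. CD8 T cells were the lowest class by the mean of both libraries, with 48.5 CPM in Tdg_KO and 44.5 CPM in Tdg_WT. Type 1 conventional dendritic cells, next by that mean, had 72.9 CPM in Tdg_KO and, below CD8 T cells, 38.7 CPM in Tdg_WT. The Trp53 level of CD8 T cells, 80.8 CPM in Tdg_KO and 73.6 CPM in Tdg_WT, was nevertheless among the highest. Across the 32 points of 16 classes in 2 libraries, Pearson's r between the log2(CPM + 1) values of Trp53 and Cdkn1a was -0.35, given as a description of points that share libraries and class depth. Mdm2 and Cdkn1a had r = 0.56 over the same points. Cdkn1a overlaps AC167363.2 on the other strand, and whether counting used strand is not given in what was read here.

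Ccng1 (chr11:40748552-40755311, minus strand), which encodes cyclin G1, varied over a 3.10-fold range, with neutrophils at the top (59.2 CPM in Tdg_KO, 49.0 CPM in Tdg_WT) and regulatory T cells next (45.7 CPM in Tdg_KO, 47.1 CPM in Tdg_WT). Monocytes, at the top for Mdm2 and Cdkn1a by the mean of both libraries, were lowest for Ccng1 by that mean. They had 10.9 CPM of Ccng1 in Tdg_KO and 24.0 CPM in Tdg_WT. In Tdg_WT other classes were lower, among them ILC2 at 10.3 CPM and type 2 conventional dendritic cells at 17.9 CPM. Monocytes lay below neutrophils for Ccng1 in both libraries. Mdm2, Cdkn1a and Ccng1 were thus not ordered alike over the myeloid classes.

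**Figure D1:**
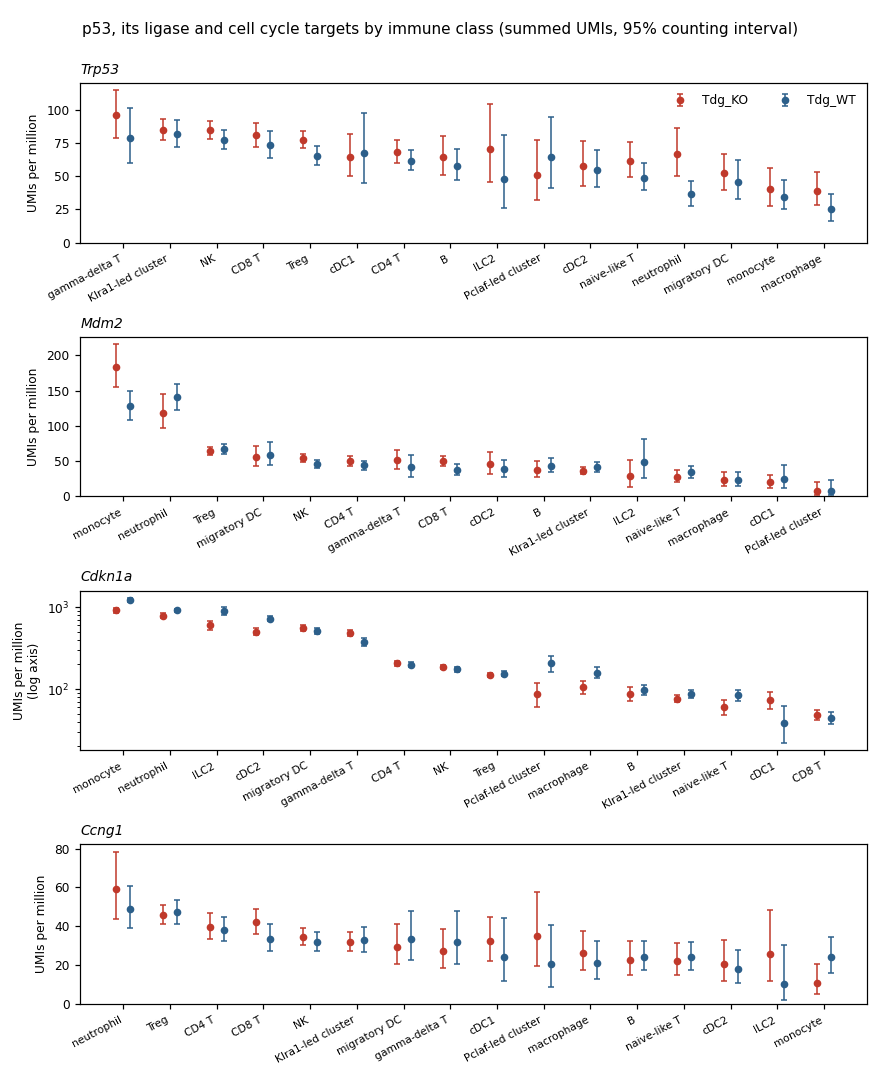
Level of Trp53, Mdm2, Cdkn1a (log axis) and Ccng1 in CPM of the summed cells of each class, Tdg_KO in red left of Tdg_WT in blue, with 95% counting intervals and classes sorted by the mean of both libraries. Trp53 stays within a 2.72-fold range, while Mdm2 and Cdkn1a are highest in monocytes and neutrophils.

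The cell death genes Bax and Bbc3 were arranged differently over the classes. Bax (chr7:45461697-45466898, minus strand), the pore-forming protein of the mitochondrial outer membrane, was present in every class, and its mean over the 2 libraries spanned a 2.79-fold range. By that mean macrophages were highest, at 207 CPM in Tdg_KO and 277 CPM in Tdg_WT. Type 1 conventional dendritic cells followed, with 209 CPM in Tdg_KO and 249 CPM in Tdg_WT. Naive-like T cells were lowest at 90.7 CPM in Tdg_KO and 82.9 CPM in Tdg_WT. Bbc3 (chr7:16308393-16318205, plus strand), which encodes the BH3-only protein PUMA that sets BAX free to act, was highest in NK cells at 44.5 CPM in Tdg_KO and 50.4 CPM in Tdg_WT. By the mean of both libraries naive-like T cells came next, at 42.5 CPM in Tdg_KO and 34.4 CPM in Tdg_WT. In macrophages not 1 UMI of Bbc3 was counted. That is 0 of 301 Tdg_KO cells, which allows a level of up to 2.79 CPM (3 UMIs of the class total), and 0 of 249 Tdg_WT cells, which allows a slightly higher level. Bbc3 was also scarce in type 1 conventional dendritic cells, with 3.78 CPM in Tdg_KO and 2.42 CPM in Tdg_WT. The Pclaf-led cluster had 0 CPM in Tdg_KO and 2.57 CPM in Tdg_WT. The neutrophils of the same libraries held 24.2 CPM of Bbc3 in Tdg_KO and 37.5 CPM in Tdg_WT. Over the 32 points, Bax and Bbc3 had r = -0.56. Bax shares its strand with the overlapping gene Gm45808, and reads of that stretch cannot be assigned to 1 of them from these files.

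Trp53inp1 (chr4:11156431-11174379, plus strand), which encodes a stress-induced nuclear protein that takes part in apoptosis and autophagy, and Sesn1 (chr10:41809935-41908424, plus strand), which encodes sestrin 1, an inhibitor of mTORC1 signalling, were both highest in lymphoid classes. Regulatory T cells were highest for Trp53inp1, with 139 CPM in Tdg_KO and 110 CPM in Tdg_WT, followed by CD4 T cells with 104 CPM in Tdg_KO and 85.4 CPM in Tdg_WT. Neutrophils, with 62.9 CPM in Tdg_KO and 50.2 CPM in Tdg_WT, followed next after NK cells, with 67.0 CPM in Tdg_KO and 56.8 CPM in Tdg_WT. Type 2 conventional dendritic cells (cDC2) were lowest, with 1.20 CPM in Tdg_KO and 2.68 CPM in Tdg_WT. Regulatory T cells were also highest for Sesn1, with 39.1 CPM in Tdg_KO and 37.5 CPM in Tdg_WT. Type 1 conventional dendritic cells (cDC1) were lowest for Sesn1 by the mean of both libraries, with 2.84 CPM in Tdg_KO and 0 UMIs in Tdg_WT. In Tdg_KO cDC2 were lower, at 1.20 CPM of Sesn1. The pair had r = 0.83 over the 32 points, above every other pair among the 9 genes. Sesn1 overlaps 9930024M15Rik on the same strand.

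**Figure D2:**
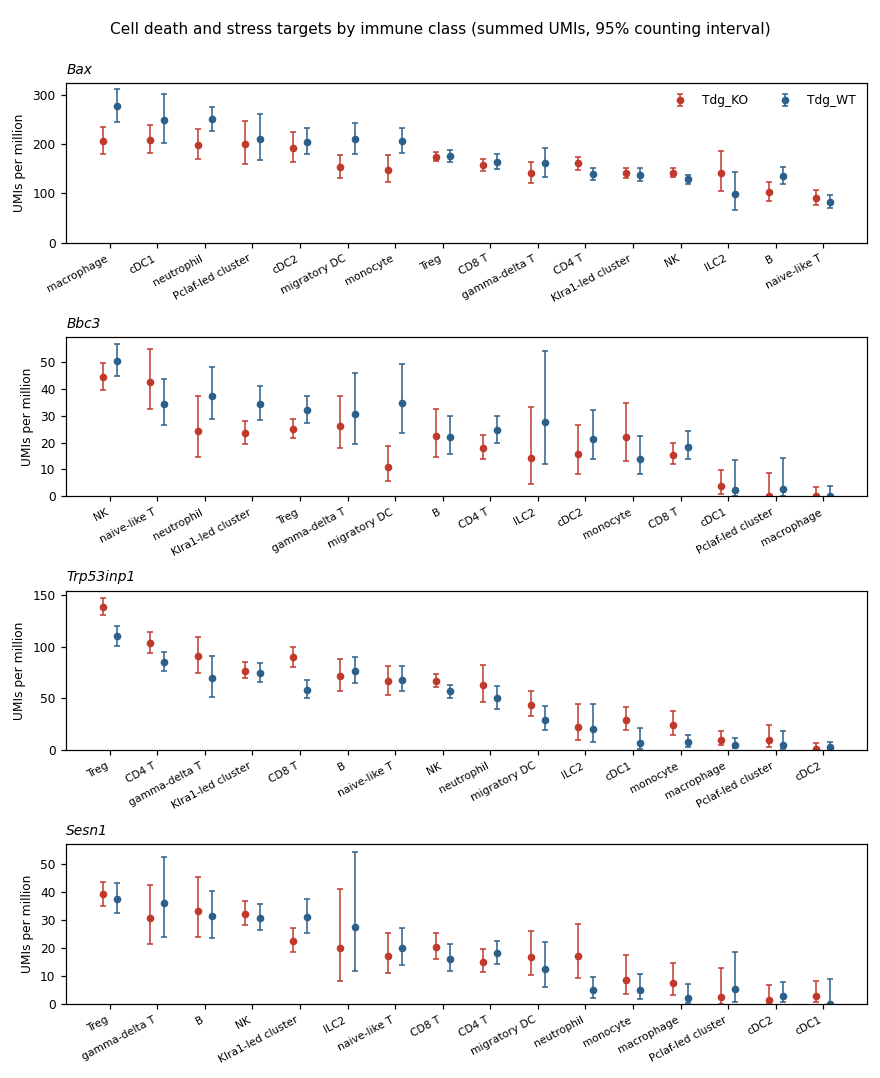
Level of Bax, Bbc3, Trp53inp1 and Sesn1 in CPM of the summed cells of each class, Tdg_KO in red left of Tdg_WT in blue, with 95% counting intervals and classes sorted by the mean of both libraries. By that mean macrophages are highest for Bax. They have 0 UMIs of Bbc3, and Trp53inp1 and Sesn1 are both highest in regulatory T cells.

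Phlda3 (chr1:135766119-135769136, plus strand), a PH-domain protein that competes with AKT for membrane lipids, was nearly missing from immune cells. All kept cells together held 110 UMIs in Tdg_KO and 61 UMIs in Tdg_WT. In the classes its level reached at most 6.62 CPM, in the cDC1 of the Tdg_KO library, from 7 UMIs in 103 cells. Macrophages, cDC2 and ILC2 had 0 UMIs in both libraries. In no class compared between the libraries did Phlda3 reach the 50 UMIs required for a comparison.

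A small group of barcodes outside the immune classes carried keratins, 20 in Tdg_KO and 18 in Tdg_WT. Among the 10 leading genes of their cluster were Krt8, Krt18, Krt19 and Cdkn2a, the gene of the p53 stabiliser ARF and of the kinase inhibitor p16, and a sort for CD45 removes cells without it. Cdkn2a stood at 418 CPM against 1.37 CPM in the other kept cells of Tdg_KO, and at 285 CPM against 1.63 CPM in those of Tdg_WT. Ptprc in them was 0.123 and 0.126 times the level of the other kept cells in Tdg_KO and Tdg_WT. Whether they are tumour cells was not tested. The comparison below, of these barcodes with all other kept cells of their own library, was chosen after the clusters were seen. Depth within the group was uneven, since 1 Tdg_KO barcode held 195160 of its 492822 UMIs, and that barcode also carried genes of a second lineage. In Tdg_WT, 1 such mixed barcode held 77190 of 252750 UMIs.

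Trp53 was lower in the keratin-bearing barcodes than in the other cells of both libraries. In Tdg_KO there were 11 UMIs, or 22.3 CPM against 73.7 CPM, a ratio of 0.303 (0.151 to 0.542), and in Tdg_WT 2 UMIs, or 7.91 CPM against 63.1 CPM, a ratio of 0.125 (0.0152 to 0.453). Without the mixed barcodes the ratio was 0.456 (0.218 to 0.839) in Tdg_KO and 0.0903 (0.00228 to 0.503) in Tdg_WT. The Trp53 UMIs lay in 4 Tdg_KO barcodes and 2 Tdg_WT barcodes. The part of free RNA in them was not tested.

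Phlda3 stood out the other way. It had 22.3 CPM in the keratin-bearing barcodes of Tdg_KO against 1.91 CPM in the other cells, a ratio of 11.7 (5.65 to 21.8), from 11 UMIs in 4 barcodes of which 1 barcode gave 5. Without that barcode the ratio was 6.89 (2.47 to 15.5). In Tdg_WT there were 2 UMIs, 7.91 CPM against 1.498 CPM, and the ratio of 5.28 had an interval of 0.625 to 19.9. The rule of 1.5-fold with an interval off 1 was also read over the 8932 genes with at least 500 UMIs over both libraries. By it 17% were higher and 24.4% lower in the Tdg_KO barcodes, and 17.1% higher and 18.6% lower in the Tdg_WT barcodes. In both, 10.2% were higher and 14.2% lower. Phlda3, with 110 UMIs in Tdg_KO and 61 UMIs in Tdg_WT over all kept cells, was not among these genes. Of the members, Trp53 and Trp53inp1 were lower in both libraries by that rule. Cdkn1a had intervals below 1 in both, but its Tdg_KO ratio of 0.793 was within 1.5-fold.

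Cdkn1a in the keratin-bearing barcodes rested on the mixed ones. In Tdg_KO it was at 197 CPM, but 80 of the 97 UMIs came from the barcode of 195160 UMIs, and without that barcode it was 57.1 CPM against 248 CPM in the other cells, a ratio of 0.230 (0.134 to 0.369). In Tdg_WT 23 of 31 UMIs came from the mixed barcode, and without it the level was 45.6 CPM against 287 CPM, a ratio of 0.159 (0.0686 to 0.313). Trp53inp1 had 13 of its 21 Tdg_KO UMIs in the same barcode and a ratio of 0.337 (0.145 to 0.665) without it, and in Tdg_WT 2 UMIs in all. Mdm2 was at 28.4 CPM in Tdg_KO, a ratio of 0.491 (0.268 to 0.826), and at 31.7 CPM in Tdg_WT, a ratio of 0.574 (0.248 to 1.13). For Ccng1 the ratios were 0.945 (0.549 to 1.52) in Tdg_KO and 1.04 (0.474 to 1.98) in Tdg_WT. Bax was at 0.672 (0.502 to 0.883) in Tdg_KO and 0.947 (0.673 to 1.30) in Tdg_WT, and at 0.921 (0.666 to 1.24) in Tdg_KO without the mixed barcode. Sesn1 was at 0.172 (0.0208 to 0.622) in Tdg_KO, from 2 UMIs, and 0.722 (0.196 to 1.86) in Tdg_WT. Bbc3 had intervals that held 1 in both libraries, with ratios of 0.926 in Tdg_KO and 0.544 in Tdg_WT.

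**Figure D3:**
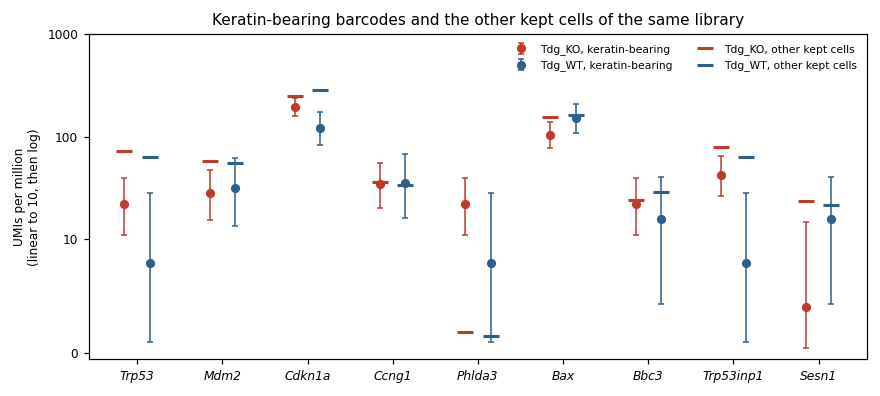
Level of the 9 genes in CPM (linear up to 10, log above) in keratin-bearing barcodes (points with 95% counting intervals, 20 in Tdg_KO and 18 in Tdg_WT) and in all other kept cells of the same library (bars), Tdg_KO in red left of Tdg_WT in blue, mixed barcodes included. Trp53 lies below and Phlda3 above the level of the other cells in both libraries, Phlda3 with 2 UMIs in Tdg_WT.

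Between the libraries, the p53 genes differed little over all kept cells. No member was 1.5-fold higher or lower in Tdg_KO with an interval off 1, against 3.81% of 13009 genes called higher and 3.01% called lower by that rule. Trp53inp1 was at 79.4 CPM in Tdg_KO and 63.7 CPM in Tdg_WT, a ratio of 1.25 (1.19 to 1.31), and Trp53 at 73.2 CPM in Tdg_KO and 62.8 CPM in Tdg_WT, a ratio of 1.17 (1.11 to 1.23). Below 1 were Bbc3, with 24.1 CPM in Tdg_KO and 29.0 CPM in Tdg_WT and a ratio of 0.830 (0.766 to 0.900), Cdkn1a with 0.866 (0.845 to 0.888), and Bax with 0.960 (0.929 to 0.992). Intervals above 1 were common in these libraries, at 36.2% of genes, and intervals below 1 were found for 11.2%. The intervals of Mdm2 (1.05, 0.990 to 1.11), Ccng1 (1.06, 0.992 to 1.14), Phlda3 (1.37, 0.991 to 1.90) and Sesn1 (1.07, 0.981 to 1.17) held 1.

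These sums also moved with the cell types sampled. Neutrophils, among the classes richest in Cdkn1a, were 4.23% of kept Tdg_KO cells and 12.5% of kept Tdg_WT cells. With every compared class given the same weight the Cdkn1a ratio was 0.955, and the ratios of Trp53 and Trp53inp1 were both 1.19. The comparison was therefore repeated class by class, in the 10 with 100 cells or more on both sides.

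Of 90 pairs of a member and a class, 74 had the 50 UMIs needed. The 16 without were Phlda3 in all 10 classes, Mdm2, Ccng1, Bbc3, Trp53inp1 and Sesn1 in macrophages, and Sesn1 in neutrophils. Among the 74 pairs, 2 were called higher and 1 lower in Tdg_KO, against 4.72% and 2.01% of 65684 pairs of any gene and a class. Intervals lay above 1 in 11 pairs and below 1 in 9, against 12.8% and 6.93% of all pairs. In 69 pairs the ratio was within 1.5-fold.

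Trp53 had a ratio above 1 in 10 of 10 classes, from 1.04 in the Klra1-led cluster to 1.83 in neutrophils, and this count was also 10 after division by the median ratio of all genes, but 5 with every cell thinned to 1000 UMIs. All 10 ratios come from the same 2 libraries and are not independent of each other. The interval lay above 1 in regulatory T cells, with 77.6 CPM in Tdg_KO and 65.1 CPM in Tdg_WT (ratio 1.19, 1.04 to 1.37), and in neutrophils, with 66.5 CPM in Tdg_KO and 36.3 CPM in Tdg_WT (1.83, 1.25 to 2.69). The neutrophil value was the 1 call for Trp53, in a class where 17.4% of genes were called higher. It rested on barcodes of mixed lineages: 33 of 241 Tdg_KO neutrophils held 40 of the 55 UMIs, and 55 of 686 Tdg_WT neutrophils held 21 of the 60. Without them the ratio was 1.06 (0.543 to 1.97). By cluster it was 1.66 (1.11 to 2.46) in neutrophils led by Slc7a11, Il1a and Tnf, which held 54 UMIs in each library, and 0.847 (0.0184 to 6.98) in those led by Cstdc4, S100a9 and S100a8, from 1 UMI in Tdg_KO and 6 UMIs in Tdg_WT. Neutrophils also had 9 of 20 dissociation and stress genes called higher, with a median log2 ratio of 0.34 against 0.17 for all genes of the class, and their part in the result was not tested.

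Trp53inp1 was the member with the most intervals above 1 in lymphoid classes. Regulatory T cells had 139 CPM in Tdg_KO and 110 CPM in Tdg_WT (ratio 1.26, 1.13 to 1.40), CD4 T cells 104 CPM in Tdg_KO and 85.4 CPM in Tdg_WT (1.21, 1.05 to 1.41), and NK cells 67.0 CPM in Tdg_KO and 56.8 CPM in Tdg_WT (1.18, 1.02 to 1.36). The NK value joined clusters of opposite direction, with 1.44 (1.16 to 1.80) in the cluster led by Klra4, Klra8 and Eomes, 1.14 (0.922 to 1.42) in that led by Gzmc, Klrb1b and Ccdc184, and 0.577 (0.332 to 0.972) in that led by Gzma, Cma1 and Prf1. In CD8 T cells it was called higher, with 354 UMIs and 89.97 CPM in Tdg_KO and 165 UMIs and 58.7 CPM in Tdg_WT, a ratio of 1.53 (1.27 to 1.86), in a class where 3.92% of genes were called higher. By cluster it was 1.42 (1.06 to 1.89) in CD8 T cells led by Cd8b1, Gzmk and Cd8a and 1.71 (1.33 to 2.23) in those led by Cd8a, Cd8b1 and Nrgn. Without mixed barcodes the class ratio was again 1.53, and it was 1.45 after division by the median ratio of all genes and 1.39 with every cell weighted equally, and 1.46 with no filter on cells, each of these last 3 under the 1.5-fold needed for a call. With every cell thinned to 1000 UMIs, Trp53inp1 had 0 intervals above 1 in any class. B cells and naive-like T cells had ratios of 0.930 (0.703 to 1.23) and 0.975 (0.740 to 1.28). CD8 T cells also had an interval above 1 for Mdm2, with 50.1 CPM in Tdg_KO and 37.7 CPM in Tdg_WT (1.33, 1.04 to 1.70), an interval lost without mixed barcodes (1.28) and after division by the median ratio (1.26), while their Cdkn1a ratio was 1.09 (0.867 to 1.38) and their Bax ratio 0.957 (0.847 to 1.08).

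Cdkn1a differed in direction between classes. Gamma-delta T cells had 477 CPM in Tdg_KO and 375 CPM in Tdg_WT, a ratio of 1.27 (1.10 to 1.47). Naive-like T cells had 60.2 CPM in Tdg_KO and 83.9 CPM in Tdg_WT (0.718, 0.545 to 0.939). Erythroid markers summed to 0.708 CPM in the Tdg_KO naive-like T cells, with Hba-a1, Hbb-bs, Hbb-bt and Alas2 of 5 at 0, and to 10194 CPM in the Tdg_WT ones, with none at 0, and the Cdkn1a ratio was 0.710 with haemoglobin, mitochondrial and ribosomal protein genes taken from the total. Neutrophils had 788 CPM in Tdg_KO and 912 CPM in Tdg_WT (0.864, 0.787 to 0.948), and without mixed barcodes the ratio was 1.01. In macrophages it was called lower, with 105 CPM in Tdg_KO and 159 CPM in Tdg_WT, a ratio of 0.661 (0.515 to 0.847), in a class where 4.66% of genes were called lower. Seen by cluster, a division added after the class values were known, the macrophages led by Apoe, C1qc and C1qa had 83.8 CPM in Tdg_KO and 158 CPM in Tdg_WT (0.530, 0.377 to 0.743), while those led by Arg1, Spp1 and Mmp12 had 176 CPM in Tdg_KO and 160 CPM in Tdg_WT (1.10, 0.743 to 1.60). The C1q cluster held 235 of 301 Tdg_KO macrophages and 125 of 249 Tdg_WT macrophages. Macrophages in Tdg_KO also had 8 of 19 dissociation and stress genes called higher, against 11.5% of all genes of the class. The median log2 ratio of these genes was 0.48 against 0.09 for all genes of the class. Fibroblast markers in macrophages summed to 170 CPM in Tdg_KO, with Pdgfra alone of 6 at 0, and 2.003 CPM in Tdg_WT, with Col3a1, Dcn, Lum and Pdgfra at 0. Their part in the result was not tested.

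**Figure D4:**
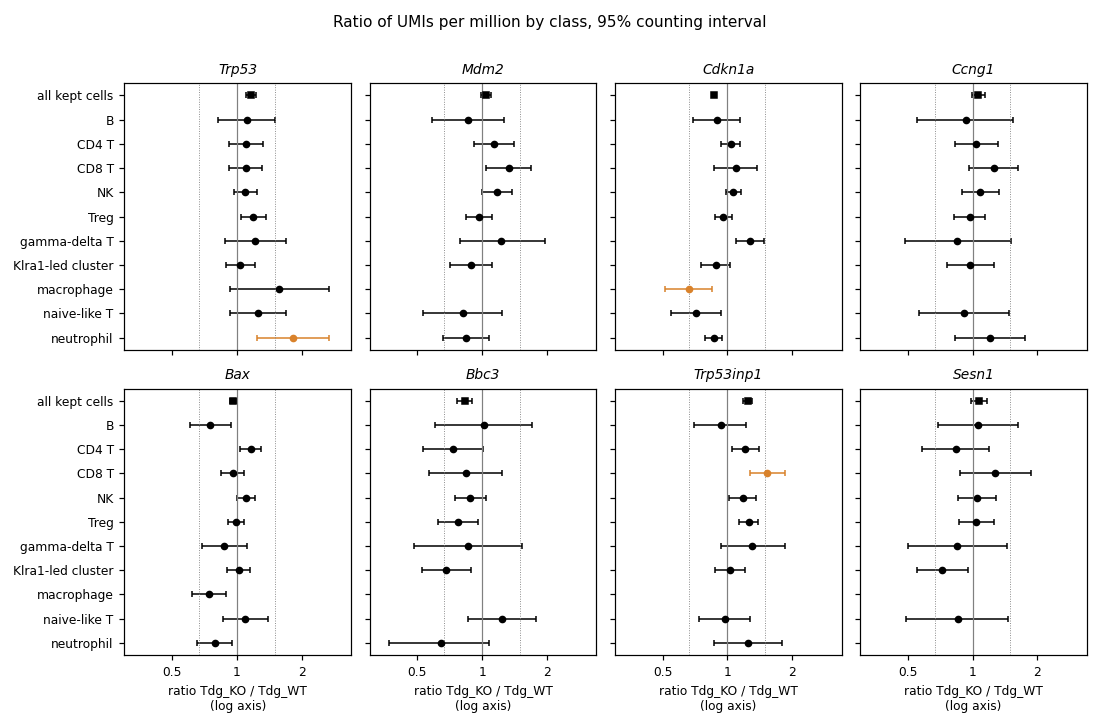
Ratio of CPM, Tdg_KO over Tdg_WT, for 8 members over all kept cells (squares) and in 10 classes (points) with 95% counting intervals on a log axis, pairs under 50 UMIs left out. Orange marks the 3 pairs past 1.5-fold (dotted lines) with an interval off 1, Trp53 in neutrophils, Trp53inp1 in CD8 T cells and Cdkn1a in macrophages.

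Bax and Bbc3 had different ratios over the classes. Bax had an interval above 1 in CD4 T cells (161 CPM in Tdg_KO and 139 CPM in Tdg_WT, ratio 1.16, 1.03 to 1.30) and in NK cells (142 CPM in Tdg_KO and 129 CPM in Tdg_WT, ratio 1.11, 1.00 to 1.22). It had an interval below 1 in B cells (0.754, 0.603 to 0.939), macrophages (0.746, 0.622 to 0.893) and neutrophils (0.790, 0.655 to 0.949), the last 2 of them myeloid. Mixed barcodes were 26.8% of Tdg_KO and 23.8% of Tdg_WT B cells, and without them the B cell ratio was 0.816. Erythroid markers summed to 2.49 CPM in Tdg_KO B cells, with Hbb-bs, Hbb-bt and Alas2 at 0, and to 7966 CPM in Tdg_WT B cells, with none at 0. With haemoglobin, mitochondrial and ribosomal protein genes taken from the total the B cell ratio was 0.739. By cluster, Bax in neutrophils was at 1.52 (0.978 to 2.31) in the one led by Cstdc4, S100a9 and S100a8, which held 86 of 241 Tdg_KO and 329 of 686 Tdg_WT neutrophils, and at 0.705 (0.571 to 0.865) in the one led by Slc7a11, Il1a and Tnf. In macrophages it was 0.863 (0.672 to 1.11) in the C1q cluster and 0.767 (0.565 to 1.03) in the Arg1 cluster. After division by the median ratio Bax had 0 intervals above 1, and with cells thinned to 1000 UMIs 0 above and 0 below. Bbc3 had a ratio above 1 in 2 of 9 classes, and in 5 of 9 with every cell thinned to 1000 UMIs, with an interval below 1 in regulatory T cells (24.9 CPM in Tdg_KO and 32.1 CPM in Tdg_WT, 0.776, 0.627 to 0.963) and in the Klra1-led cluster (23.4 CPM in Tdg_KO and 34.2 CPM in Tdg_WT, 0.683, 0.523 to 0.892). Ccng1 had no interval off 1 in 9 classes. Sesn1 had 1, below 1 in the Klra1-led cluster (22.4 CPM in Tdg_KO and 30.9 CPM in Tdg_WT, 0.725, 0.550 to 0.957).

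Single cells were then read for members that occur together. Cells were thinned to 3000 UMIs, which left out 742 Tdg_KO cells and 1023 Tdg_WT cells, and within each class and library the share of cells with a UMI of another member was compared between cells with and without Cdkn1a UMIs. Of 101 such pairs with at least 20 UMIs, the intervals were apart in the higher direction in 1 and in the lower direction in 1, against 0.569% and 0.336% of 93824 pairs of any gene. The higher one was Ccng1 in Tdg_WT neutrophils, with a UMI in 23.3% (16.1 to 31.9) of 120 cells with Cdkn1a and in 3.03% (0.369 to 10.5) of 66 cells without. The 686 kept Tdg_WT neutrophils had a median of 1802.5 UMIs, so most were left out and only the deeper ones entered. The neutrophil cluster led by Cstdc4, S100a9 and S100a8 had a median of 949 UMIs over both libraries. In Tdg_KO neutrophils the shares were 14.0% (5.82 to 26.7) and 3.12% (0.0791 to 16.2), and their intervals overlapped. The lower one was also Ccng1, in the Klra1-led cluster of Tdg_WT, with a UMI in 0% (0 to 4.68) of 77 cells with Cdkn1a and in 12.2% (8.79 to 16.4) of 311 cells without. In the Tdg_KO cells of that cluster the shares were 12.0% (5.93 to 21.0) and 9.53% (6.99 to 12.6). For scale, S100a8, a neutrophil gene that NK cells should lack, had a UMI in 3.21% of Tdg_KO and 7.86% of Tdg_WT NK cells before thinning, at median depths of 6025.5 UMIs in Tdg_KO and 5573 UMIs in Tdg_WT. Trp53 was not among the members with intervals apart in any class or library.

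Barcodes with UMIs of at least 3 proliferation genes were set against barcodes with none in the same class and library. Proliferation genes were counted before thinning and the members after thinning to 3000 UMIs. Depth was thus held fixed for the members but not for the split. The members' ratios had an interval above 1 in 1 and below 1 in 4 of 84 pairs, against 6.05% and 4% of 68989 pairs of any gene. The 1 above was Trp53 in the Klra1-led cluster of Tdg_WT (1.84, 1.02 to 3.19). Below 1 were Cdkn1a in the same cells (0.0880, 0.00219 to 0.508), Bbc3 in NK cells of Tdg_WT (0.111, 0.00278 to 0.639), and Bbc3 (0.320, 0.0974 to 0.828) and Ccng1 (0.490, 0.229 to 0.960) in regulatory T cells of Tdg_KO. Cdkn1a in the Klra1-led cluster of Tdg_KO was at 0.963 (0.513 to 1.71) at 3000 UMIs and at 0.189 (0.0220 to 0.738) at 1000 UMIs, where the Tdg_WT cycling barcodes held 0 UMIs, with an interval of 0 to 0.826. Trp53inp1 in regulatory T cells, for example, was at 0.700 times (0.479 to 1.01) its level in non-cycling barcodes in Tdg_KO and 0.724 times (0.413 to 1.21) in Tdg_WT. For Cdkn1a in the same class the ratios were 1.06 (0.755 to 1.48) in Tdg_KO and 0.848 (0.560 to 1.25) in Tdg_WT. The range with 1 or 2 proliferation genes held 292 Tdg_KO and 207 Tdg_WT regulatory T cells and entered neither side.

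The genes whose levels followed Trp53 and Cdkn1a most closely over the 32 points were read out from 8813 genes. For Trp53 they were Sept6 (r = 0.88), Larp7 (0.85), Nup210 (0.85), Ankrd54 (0.85) and Plekha5 (0.84). For Cdkn1a they were Atf3 (0.86), a stress-induced transcription factor, Zfp36 (0.83), which encodes the mRNA-decay factor tristetraprolin, Zfand5 (0.81), Txnrd1 (0.79), the cytosolic thioredoxin reductase, and Rnf19b (0.79). None of the other 8 members was among the 5 nearest to either gene.

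Other genes of the pathway were taken from lists. Of 37 further p53 targets, 36 were counted over all kept cells, of which 1 was called higher and 0 lower, with a median log2 ratio of 0.07 against 0.10 for all 13009 genes. The 1 called was Gdf15, a stress-induced secreted factor of the TGF-beta family. It had 391 UMIs and 7.48 CPM in Tdg_KO and 122 UMIs and 3.08 CPM in Tdg_WT, a ratio of 2.43 (1.98 to 3.001). Gdf15 had too few UMIs to be counted in any compared class, so this ratio cannot be placed in a class of immune cells. Clusters left in no class were 11.5% of kept Tdg_KO cells and 6.72% of kept Tdg_WT cells. The part of these clusters and of the keratin-bearing barcodes in the Gdf15 ratio was not tested. Btg2, an antiproliferative gene, had a ratio of 1.13 (1.11 to 1.15), Ier5 of 1.08 (1.05 to 1.10), and Gtse1, from 51 UMIs in all, 1.66 (0.894 to 3.21). Within classes Btg2 was called higher in macrophages (248 CPM in Tdg_KO and 98.1 CPM in Tdg_WT, 2.53, 1.996 to 3.22), in a class where 11.5% of genes were called higher. Btg2 is also an immediate early gene. In CD4 T cells, where 1.37% of genes were called lower, 2 of 28 targets counted were, Plk2 (0.632, 0.496 to 0.802) and Plk3 (0.663, 0.525 to 0.836), both polo-like kinases. In CD8 T cells, where Trp53inp1 was called, 0 of 25 were called in either direction.

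Of 21 regulators and partners of p53, 19 were counted over all kept cells, 2 were called higher and 1 lower, against 3.81% and 3.01% of all genes, and the median log2 ratio was 0.19 against 0.10 for all genes. Chek1, a checkpoint kinase, had 2.37 CPM in Tdg_KO and 1.44 CPM in Tdg_WT (1.65, 1.20 to 2.30). Cdkn2a had 5.30 CPM in Tdg_KO and 3.43 CPM in Tdg_WT (1.54, 1.25 to 1.91), of which the keratin-bearing barcodes held 206 of 277 UMIs in Tdg_KO and 72 of 136 in Tdg_WT. Ppp1r13l, which encodes the p53 inhibitor iASPP, was called lower from 22 UMIs in Tdg_KO and 45 in Tdg_WT (0.371, 0.212 to 0.630). Of the 2 with the most UMIs, Crebbp, a histone acetyltransferase that acts with p53, was at 1.14 (1.10 to 1.19) and Rchy1, a ubiquitin ligase for p53, at 1.09 (1.04 to 1.15). In neutrophils, where 17.4% of genes were called higher, 2 of 6 regulators counted were. They were Mdm4, the partner of MDM2 (54.4 CPM in Tdg_KO and 33.3 CPM in Tdg_WT, 1.64, 1.08 to 2.47), and Usp7 (58.0 CPM in Tdg_KO and 35.7 CPM in Tdg_WT, 1.63, 1.09 to 2.42). The part of mixed barcodes in these 2 calls was not tested.

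In the BCL2 family without Bax and Bbc3, 13 of 14 were counted over all kept cells, 2 were called higher and 0 lower, against 3.81% and 3.01% of all genes, and the median log2 ratio was 0.09 against 0.10 for all genes. Both called encode BH3-domain proteins, Bmf (4.30 CPM in Tdg_KO and 2.50 CPM in Tdg_WT, 1.72, 1.35 to 2.20) and Bik (3.65 CPM in Tdg_KO and 2.37 CPM in Tdg_WT, 1.54, 1.20 to 1.99). The survival genes Mcl1, at 539 CPM in Tdg_KO and 670 CPM in Tdg_WT (0.805, 0.791 to 0.818), and Bcl2a1b (0.955, 0.942 to 0.969) had the most UMIs. Bcl2a1b belongs to a cluster of near-identical copies, between which counting may be split. The 5 other kinase inhibitors had no call over all kept cells, against 3.81% and 3.01% of all genes, and a median log2 ratio of 0.05 against 0.10. In B cells 1 of the 2 counted was called lower, against 2.01% of all pairs of a gene and a class. It was Cdkn2d, with 45.6 CPM in Tdg_KO and 80.0 CPM in Tdg_WT (0.570, 0.411 to 0.783). Over all kept cells Cdkn2d, at 64.8 CPM in Tdg_KO and 85.3 CPM in Tdg_WT, had a ratio of 0.760 (0.725 to 0.797). Cdkn1c, the gene of p57, had 1.34 (1.06 to 1.71), and Cdkn1b, the gene of p27, 0.965 (0.934 to 0.996).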

How the data were processed

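A 10x Genomics 3′ library per group was used. The authors deposited whole UMI counts for each gene in each barcode, with no normalisation, made with Cell Ranger 6.0.1 per the file headers. Cell Ranger, Seurat and mm10 are named, per the submitters' processing notes, without a role. The annotation and strand setting were not given in the sources used here. Both matrices list 32285 features, of which those with the same symbol were summed to 32245 symbols. Gene positions and overlaps come from GENCODE M21 on mm10, and promoter windows from RefSeq on GRCm38.p6.

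Kept barcodes had 200 genes or more and no more than 10% of UMIs from mitochondrial genes. Clustering used both libraries, scanpy 1.11.5 under Python 3.11.15 and 2000 variable genes, without the 9 genes and the other listed genes, with 30 principal components, 15 neighbours and Leiden resolution 1. Clusters were named from marker genes. The minimum marker score of 0.5, and the rule that clusters with at least 50% mixed barcodes (3 or more markers of each of 2 lineages) stay unnamed, were set after the clusters were seen. No doublet caller was run. The class led by Klra1 is kept by its leading genes.

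Class sums of each library were scaled by their own total to give CPM. Levels have exact Poisson, shares exact Clopper-Pearson and ratios exact conditional Poisson 95% intervals (scipy 1.17.1). All cover counting error only, and cells are not replicates. A gene was counted with at least 50 UMIs over both libraries and called at 1.5-fold or more with an interval off 1. The ratio interval was checked on simulated Poisson counts, which hold no clumping of UMIs in single barcodes. That check therefore could not show how the interval behaves where UMIs are clumped. The 9 genes and the lists were chosen with earlier results of these data known. Named from each list are the 2 genes with the most UMIs and the 2 of most extreme ratio, and for likeness the 5 nearest genes with at least 500 UMIs. Other list genes, the keratin comparison and the values by cluster were chosen after the data were seen. Alternatives changed the cell filter, mixed barcodes, weighting, thinning, the total, scaling, resolution and gene filter.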

Additional observations from a re-analysis of the deposited data

Results flagged for a closer look

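Cdkn1a and Bax had counting intervals on opposite sides of 1 in different classes, Tdg_KO over Tdg_WT. The difference between classes was not tested, and each class has 1 library per group. For Cdkn1a the ratio was 1.27 in gamma-delta T cells, against 0.661 in macrophages, 0.718 in naive-like T cells and 0.864 in neutrophils. For Bax it was 1.16 in CD4 T cells and 1.11 in NK cells, against 0.754 in B cells, 0.746 in macrophages and 0.790 in neutrophils. Cdkn1a intervals below 1 numbered 3, and 1 without mixed barcodes, where the neutrophil ratio was 1.01. With cells thinned to 1000 UMIs Cdkn1a had 0 above and 1 below, and Bax 0 on either side. Bax intervals above 1 numbered 2, and 0 after division by the median ratio of all genes, and those below 1 numbered 3, and 2 without mixed barcodes.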

How the results depend on the processing

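No paired analysis was possible because each group has 1 library, so leaving out a replicate was not possible either. Division by the median ratio of all genes (a shift of 0.10 on the log2 scale over all kept cells) gave 1.09 for Trp53, 0.977 for Mdm2, 0.809 for Cdkn1a, 0.897 for Bax and 1.16 for Trp53inp1. Thinning every cell to 1000 UMIs gave 0.894 for Mdm2, 0.953 for Ccng1, 0.762 for Cdkn1a and 0.866 for Bax. With every cell weighted equally the ratio was 0.901 for Mdm2, 0.971 for Ccng1, 0.909 for Phlda3 and 0.734 for Cdkn1a. Without mixed barcodes it was 0.986 for Mdm2 and 0.800 for Cdkn1a, and with equal class weights 0.955 for Cdkn1a and 0.916 for Bax. Mdm2, Ccng1 and Phlda3, whose intervals held 1, thus have no stable direction. Over 9 alternatives Bbc3 ranged from 0.774 to 0.850 and Sesn1 from 1.00 to 1.16.

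After thinning to 1000 UMIs the ratio was above 1 in 5 of 10 classes for Trp53 and in 5 of 9 for Bbc3. Pairs called higher numbered 2, 3 under the stricter cell filter (with Trp53 in macrophages) and 3 at 20 UMIs (with Sesn1 in neutrophils), 1 without mixed barcodes (Trp53inp1 in CD8 T cells), 1 after division by the median (Trp53 in neutrophils) and 1 after thinning, which was Trp53 in regulatory T cells and neither of the 2. With no filter on cells they were 2, Trp53 in neutrophils and in macrophages. Pairs called lower numbered 1, and were 0 under the stricter cell filter, 2 after thinning and 3 after division by the median. Under 9 alternatives Trp53 in neutrophils ranged from 1.06 to 1.90, Trp53inp1 in CD8 T cells from 1.39 to 1.61 and Cdkn1a in macrophages from 0.444 to 0.731. By cluster, chosen after the data were seen, Cdkn1a was at 1.10 in Arg1 macrophages and Trp53 at 0.847 in the S100a8 neutrophils and 1.66 in the Slc7a11 ones, which held most of its UMIs. The cause was not tested. Members with intervals apart by Cdkn1a numbered 0 higher at 5000 UMIs and 0 lower at 1000 UMIs, and those above 1 in cycling barcodes 4 at 5000 UMIs. With every cell weighted equally no interval exists, so pairs were not counted.

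Too few UMIs left Phlda3 uncompared in every class and 5 other members uncompared in macrophages.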
